A study of Mus musculus with 12 samples.

Results

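The 10 genes described here are ER chaperone and unfolded protein response genes, and they were followed across fibroblasts in which a VEGF-derived construct was switched on. They were chosen by symbol from the table of raw counts and are Hspa5, Hsp90b1, Pdia4, Dnajb9, Sdf2l1, Herpud1, Xbp1, Calr, Creld2 and Manf. Each symbol had 1 row, so they make up 10 of the 54447 rows of the table, and all 10 were among the 13608 genes that passed the filter on low counts. The cells were mouse embryonic fibroblasts of the NIH3T3 line that carried N-VEGF, the amino-terminal part of a long form of VEGF-A, or NLS-N-VEGF, the same part behind a nuclear localization sequence, with a His tag on both. All 4 groups carried the lentiviral Tet-One vector, in which doxycycline (dox) drives the construct, and were puromycin-selected pools, not clones. The groups were NLS-N-VEGF cells without dox, NLS-N-VEGF cells with dox, N-VEGF cells without dox and N-VEGF cells with dox, with 3 libraries each. The authors chose normoxic conditions for this experiment and collected cells after a single time of dox treatment, so other times were not seen. No group had cells without a construct, so an effect of dox itself and an effect of the construct cannot be told apart.

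Proteins that enter the endoplasmic reticulum (ER) are folded there by chaperones such as BiP, GRP94 and calreticulin, and by disulfide isomerases. When unfolded protein accumulates, the membrane sensors ATF6 and IRE1 are activated. ATF6 is cut in the Golgi and enters the nucleus, and IRE1 splices the mRNA of the transcription factor XBP1, and both factors then raise transcription of chaperone and degradation genes. Another sensor, PERK, acts through translation and the transcription factor ATF4. The comparison asks whether the genes of the ATF6 and XBP1 arm move when the construct is expressed, as a readout of load on the secretory pathway. The authors located both forms of the construct in cytoplasm and nucleus, N-VEGF in the nucleus only after hypoxia. They describe VEGF, not N-VEGF, as the secreted part. Entry of the construct into the ER was not tested.

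Total counts per library lay between 13549331 and 18982127, and 3 counts, the floor used here, equalled 0.158 to 0.221 counts per 1000000 (CPM). The label of each library ends in a number and a suffix, and every group had the libraries 1_120519, 2_120519 and 2_290419, in which order values are given below. The meaning of the suffix is not stated in the labels. Libraries with suffix _290419 stood apart from the others in every group, with a chi-square per degree of freedom of 17.2 to 76.3 against them, and library 1_120519 of N-VEGF cells without dox stood apart within suffix _120519, with 25.95 against library 2_120519 of its group, where the corresponding pairs of the other groups had 1.75 to 4.98. The cells had the markers of fibroblasts, with Col1a2 at 2655 to 3955 CPM and Vim at 3644 to 5292 CPM. The 6 endothelial markers summed to 2.82 to 5.02 CPM, the 6 epithelial ones to 1.62 to 3.55 CPM and the 6 blood cell markers to 2.46 to 5.78 CPM. In each of these lists some markers were at or near 0 and others were detected in all 12 libraries. Of the endothelial markers, Kdr was at 0 counts in 10 libraries and Emcn in 7, while Cdh5 had 1.80 to 3.47 CPM. Of the epithelial markers, Krt5 and Krt19 were at 0 in 12 libraries and Epcam and Cldn4 in 11, while Krt14 had 0.811 to 2.48 CPM and Cdh1 0.498 to 1.69 CPM. Of the blood cell markers, Cd3e was at 0 in 12 libraries, Adgre1 in 11, Itgam in 8 and Ptprc in 6, while Cd68 had 2.40 to 5.53 CPM. Nothing in the labels says whether the libraries of a group came from separate cultures, so p-values measure the spread between these libraries.

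Reads of the construct check the labels. The row of the construct insert, which covers 592 positions, held 5, 7 and 12 counts in untreated NLS-N-VEGF libraries, against 48, 35 and 173 in the treated ones. For N-VEGF it held 5, 10 and 7 counts in untreated and 121, 149 and 268 counts in treated libraries. All 6 libraries with dox were therefore above all 6 without it. The level with dox was 2.57, 2.58 and 10.2 CPM in NLS-N-VEGF cells and 7.56, 8.08 and 17.9 CPM in N-VEGF cells, and the libraries with suffix _290419 had the highest value of each group. In bulk RNA, more cells with the construct and more construct per cell cannot be told apart. Per 1000 positions the insert reached 4.34 to 30.3 CPM with dox. On the log2 scale the construct rose by 4.62 (SE 0.67, edgeR adjusted p = 0.0412) in N-VEGF cells and differed by 3.31 (SE 0.67, edgeR adjusted p = 0.557) in NLS-N-VEGF cells. With the replicate label as a block, both passed, at 4.65 (edgeR adjusted p = 1.3e-07) and 3.19 (edgeR adjusted p = 9.31e-05). The call in N-VEGF cells was lost without any 1 of 9 libraries in the model without the block, at edgeR adjusted p between 0.064 and 0.399, while the log2 fold change stayed between 4.11 and 4.91.

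The promoters of these genes are known for the ER stress response element, which ATF6 binds together with NF-Y. Promoter windows from RefSeq, 250 bases before to 50 bases after each start, were available for 9 of the 10 genes on build GRCm38.p6 (all but Manf). On either strand, the element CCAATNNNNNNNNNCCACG matched in 4 of the 9, which were Hspa5, Hsp90b1, Calr and Creld2. Among all RefSeq promoter windows of the same kind it matched in 39 of 32851 (0.119%), or in 37 of 27025 genes (0.137%). Hsp90b1 had 2 copies. The shorter form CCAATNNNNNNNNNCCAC, which includes every match of the longer one, matched in 6 of 9 (also Pdia4 and Herpud1) and in 0.365% of all windows. A second element, ATTGGNCCACG, matched in Herpud1 alone among the 9 and in 0.0365% of windows, and the XBP1-type element TGACGTGG matched in 0 of 9 and in 0.676% of windows. No match says only that these letters are not in this window. The stretches of 30 bases below show the 5 matches of the longer element in 4 promoters, the shorter form in Pdia4 and Herpud1, and the second element of Herpud1, because they are the letters that these counts rest on. They are written along the strand of the gene with the match in capitals, and a match on the other strand starts with CGTGG or GTGG and ends with ATTGG.
Hspa5: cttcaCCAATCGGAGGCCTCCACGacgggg
Hsp90b1, distal: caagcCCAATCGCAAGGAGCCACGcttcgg
Hsp90b1, proximal: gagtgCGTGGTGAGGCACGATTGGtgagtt
Calr: caacgCGTGGTCGACCCTCATTGGcccata
Creld2: cttctCGTGGCGAGCCTCAATTGGtccaca
Pdia4, shorter form: aaccgaGTGGCAGCCCGTGATTGGtggtcg
Herpud1, shorter form: tctcagCCAATGGATGGCAGCCACagagag
Herpud1, second element: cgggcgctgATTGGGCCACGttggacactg

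In the same order these stretches lie at chr2:34772020-34772049 (plus strand), chr10:86705632-86705661 and chr10:86705527-86705556 (minus), chr8:84847069-84847098 (minus), chr15:88819515-88819544 (plus), chr6:47813596-47813625 (minus), chr8:94386405-94386434 (plus) and chr8:94386368-94386397 (plus). Counted from the RefSeq start, the match of Hspa5 ran from -65 to -47, and those of Hsp90b1 from -212 to -194 and from -107 to -89. That of Calr began at -162 and that of Creld2 at -126, so all lay within the 250 bases before the start, as the map of motif matches shows. Among the other ER folding genes, 3 of 12 with a window held the longer element (Pdia6, Canx and Dnajc3), and among the genes of ER-associated degradation 2 of 11 (Syvn1 and Derl3).

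**Figure D1:**
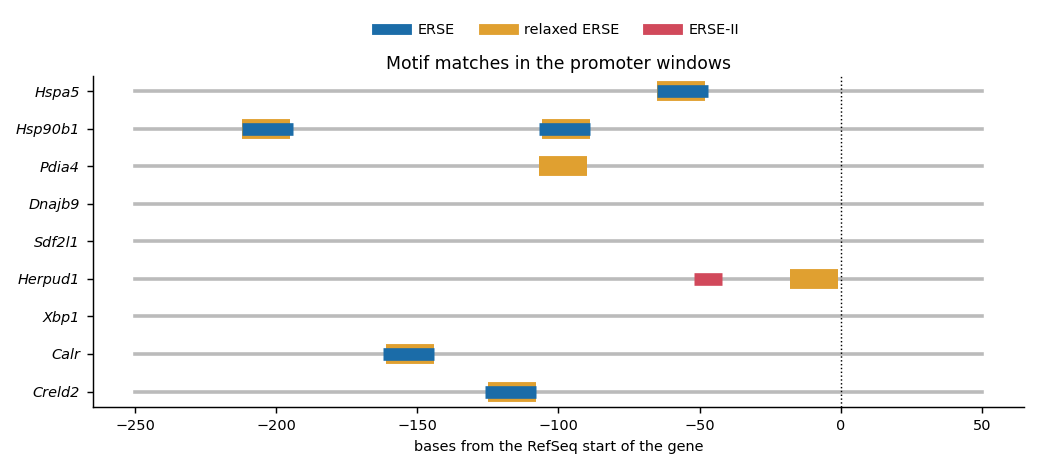
Matches of the ER stress response element (ERSE), its shorter form (relaxed ERSE) and the second element (ERSE-II) in the promoter windows of the 9 genes with a RefSeq entry, against the distance in bases from the start of the gene. Blue bars stand for the 5 matches of the longer element, in Hspa5, Hsp90b1 (2), Calr and Creld2, and the windows of Dnajb9, Sdf2l1 and Xbp1 hold no match.

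The 10 genes differed widely in level and little between groups. Per 1000 exon bases, the mean over the 12 libraries was 435.8 CPM for Calr, 283.8 CPM for Hsp90b1 and 219.8 CPM for Hspa5, the abundant chaperones. Next came Pdia4 at 69.2, Creld2 at 56.6, Manf at 34.9, Herpud1 at 27.7, Xbp1 at 24.2, Sdf2l1 at 19.3 and Dnajb9 at 5.22 CPM per 1000 exon bases. Each gene was above the next in that order in all 12 libraries, except that Manf was above Herpud1 in 11 and Xbp1 above Sdf2l1 in 10. The ranges of Manf and Herpud1, of Herpud1 and Xbp1 and of Xbp1 and Sdf2l1 overlapped over the 12 libraries. Within libraries, Herpud1 was still above Xbp1 in 12 of 12, and both genes were lowest in the libraries with suffix _290419. Between its lowest and highest library, Hspa5 differed by 1.12-fold and Pdia4 by 1.13-fold. Herpud1 and Xbp1 spanned 1.75-fold and 1.74-fold, the widest of the 10.

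Hspa5 encodes BiP, the Hsp70 chaperone of the ER lumen that also holds the sensors inactive, and is a standard marker of the response (ENSMUSG00000026864, chromosome 2, 34771970 to 34777547, build GRCm38). The untreated NLS-N-VEGF libraries stood at 969, 966 and 920.1 CPM and the treated ones at 972, 981 and 889.7 CPM. For N-VEGF the untreated libraries stood at 924, 883 and 918 CPM and the treated ones at 943, 905 and 879.8 CPM. The groups overlapped, and with dox the library with suffix _290419 was the lowest in both populations. Dox against no dox gave a log2 fold change of -0.01 (SE 0.07, 95% interval -0.17 to 0.15) in NLS-N-VEGF cells and 0.00 (SE 0.07, 95% interval -0.16 to 0.16) in N-VEGF cells. As folds, the intervals reached from 0.891 to 1.11 and from 0.896 to 1.12.

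Hsp90b1 encodes GRP94, the Hsp90 of the ER (ENSMUSG00000020048, chromosome 10, 86690209 to 86705509). The NLS-N-VEGF libraries stood at 1112, 1082 and 1330 CPM untreated and at 1139, 1164 and 1201 CPM treated. The N-VEGF libraries stood at 966, 1063 and 1284 CPM untreated and at 1092, 1093 and 1204 CPM treated. Its groups overlapped, with suffix _290419 highest in each. Of its exon bases, 5.38% are shared with another gene on the same strand and 10.3% with genes on the other strand, and the strand setting of the counting is not given, so its counts are less certain. Calr encodes calreticulin, a lectin chaperone that binds calcium (ENSMUSG00000003814, chromosome 8, 84841850 to 84846934). Untreated NLS-N-VEGF libraries had 1115, 1112 and 1494 CPM of it, and treated ones 1124, 1028 and 1459 CPM. Untreated N-VEGF libraries had 1429.6, 1039 and 1492 CPM, and treated ones 1110, 1099 and 1561 CPM. Within suffix _120519, the library of N-VEGF cells without dox that stood apart also had the highest Calr. Over the 12 libraries, that library was the highest for Pdia4, Sdf2l1, Herpud1, Xbp1 and Creld2 and the lowest for Hsp90b1. For Hspa5, Dnajb9 and Manf it was at neither end.

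**Figure D2:**
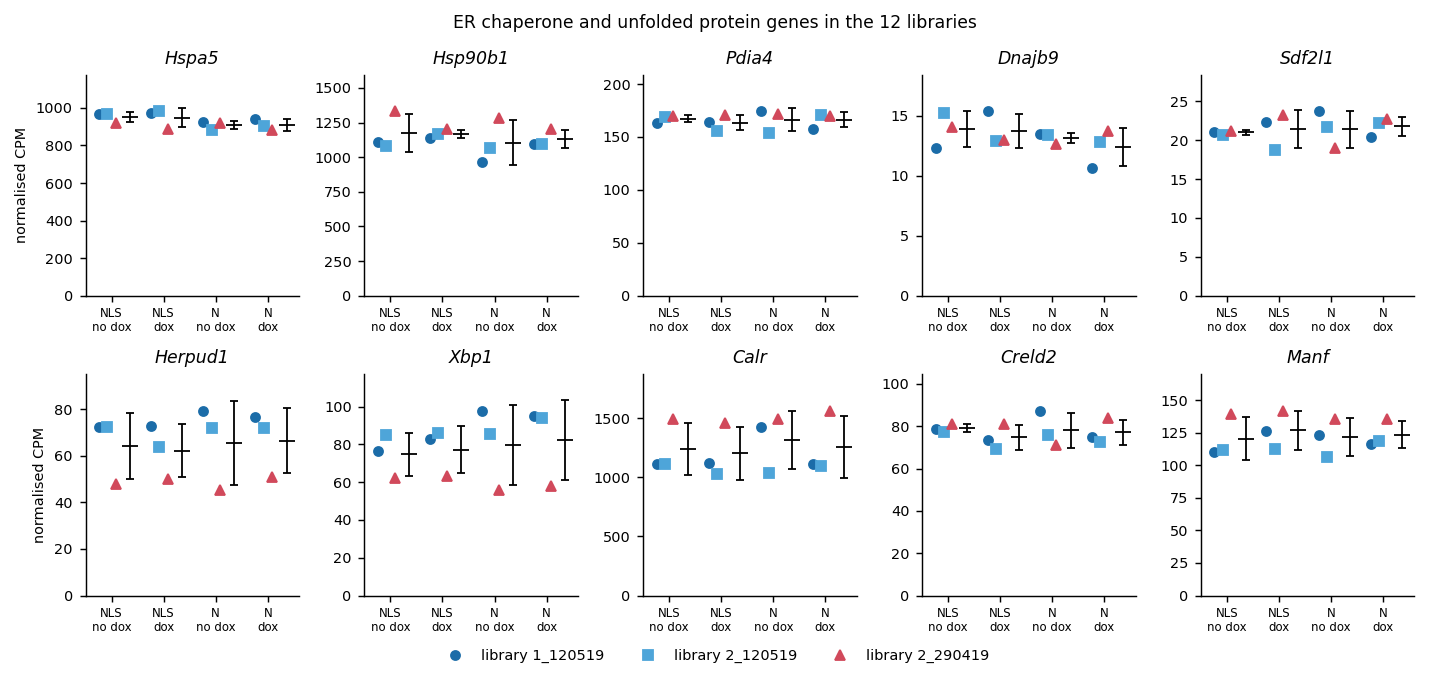
Normalised CPM of the 10 genes (vertical axes from 0, a scale of its own for each gene) in NLS-N-VEGF (NLS) and N-VEGF (N) cells without and with dox. Each symbol is 1 library, named by its label, and the bar beside it is the mean ± SD of 3 libraries. The groups overlap for every gene, and the triangles (2_290419) lie above the other libraries for Hsp90b1, Calr and Manf and below them for Herpud1 and Xbp1.

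Pdia4 (ENSMUSG00000025823, chromosome 6, 47796141 to 47813430), a protein disulfide isomerase, lay between 154 and 174 CPM in all 12 libraries. Dnajb9 (ENSMUSG00000014905, chromosome 12, 44205559 to 44210326), the J-domain protein ERdj4 that works with BiP, was the lowest in level, at 10.7 to 15.4 CPM. Sdf2l1 (ENSMUSG00000022769, chromosome 16, 17130138 to 17132383), a partner of ER J-domain proteins, lay between 18.7 and 23.7 CPM. For all of these the groups overlapped. For Dnajb9 the means were 13.9 ± 1.49 CPM in untreated and 13.8 ± 1.40 CPM in treated NLS-N-VEGF cells, and 13.2 ± 0.442 CPM in untreated and 12.4 ± 1.56 CPM in treated N-VEGF cells (SD, n = 3).

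Herpud1 encodes an ER membrane protein of the degradation machinery (ENSMUSG00000031770, chromosome 8, 94386438 to 94395377). NLS-N-VEGF libraries had 72.2, 72.3 and 47.7 CPM untreated and 72.8, 63.8 and 50.1 CPM treated. N-VEGF libraries had 79.2, 72.0 and 45.3 CPM untreated and 76.7, 72.0 and 50.8 CPM treated. Its libraries with suffix _290419 were the lowest of each group, and the dox groups overlapped those without. Xbp1, the transcription factor of the IRE1 arm (ENSMUSG00000020484, chromosome 11, 5520659 to 5525893), lay at 76.8, 85.1 and 62.3 CPM in untreated and at 82.9, 86.0 and 63.1 CPM in treated NLS-N-VEGF libraries. It lay at 97.6, 85.5 and 56.1 CPM in untreated and at 95.2, 94.004 and 57.8 CPM in treated N-VEGF libraries. It followed the suffix in the same direction as Herpud1, and counts per gene do not separate its spliced from its unspliced mRNA.

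Creld2 and Manf encode proteins of the ER lumen that can be secreted and that are known to be raised in ER stress. Creld2 (ENSMUSG00000023272, chromosome 15, 88819646 to 88826683) lay between 69.4 and 87.1 CPM, both of these extremes in suffix _120519. The higher was in the N-VEGF library without dox that stood apart. Manf (ENSMUSG00000032575, chromosome 9, 106838312 to 106891979) lay at 110, 112 and 140 CPM in untreated and at 127, 112 and 142 CPM in treated NLS-N-VEGF libraries. It lay at 124, 106 and 135 CPM in untreated and at 117, 118 and 136 CPM in treated N-VEGF libraries. The suffix _290419 libraries were again the highest of each group. Of the exon bases of Manf, 8.85% are shared with genes on the other strand.

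Dox changed none of the 10 genes past the threshold. In NLS-N-VEGF cells 0 of 10 had an edgeR adjusted p under 0.05, where 3 of 13608 genes (0.022%) did, and in N-VEGF cells 0 of 10, where 5 of 13608 (0.0367%) did. With so few calls among all genes, a count of 0 in 10 does not set these genes apart from the rest. Over both populations 0 of 10 passed, against 0.0588% of all genes. At an unadjusted p under 0.05, 0 of the 10 passed in any of the 3 dox comparisons. Of all genes, 318 (2.34%) did in NLS-N-VEGF cells, 201 (1.48%) in N-VEGF cells and 423 (3.11%) over both. At such shares, 0 in 10 again does not set these genes apart. DESeq2 also called 0 of 10. The median log2 fold change of the 10 was -0.01 in NLS-N-VEGF cells and 0.01 in N-VEGF cells, beside medians over all genes tested of 0.00 in both.

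The intervals give the size of effect that these libraries could still hold. In NLS-N-VEGF cells the log2 fold changes of the 10 ran from -0.08 (Creld2) to 0.07 (Manf), and in N-VEGF cells from -0.08 (Dnajb9) to 0.05 (Xbp1). The highest upper bound of any 95% interval was 1.46-fold in NLS-N-VEGF cells and 1.46-fold in N-VEGF cells, both for Xbp1. The lowest lower bounds were 0.682-fold, for Herpud1 in NLS-N-VEGF cells, and 0.712-fold, for Calr in N-VEGF cells. These were the genes that differed most between suffixes. With the replicate block, which takes that difference out, 15 genes passed in N-VEGF cells (0.11%), 17 in NLS-N-VEGF cells (0.125%) and 77 over both (0.566%), and still 0 of the 10. The bounds of the 10 then lay between 0.836-fold and 1.19-fold in NLS-N-VEGF cells and between 0.787-fold and 1.19-fold in N-VEGF cells. The smallest edgeR adjusted p of the 10 with the block was 0.898 in NLS-N-VEGF cells and 0.924 in N-VEGF cells.

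**Figure D3:**
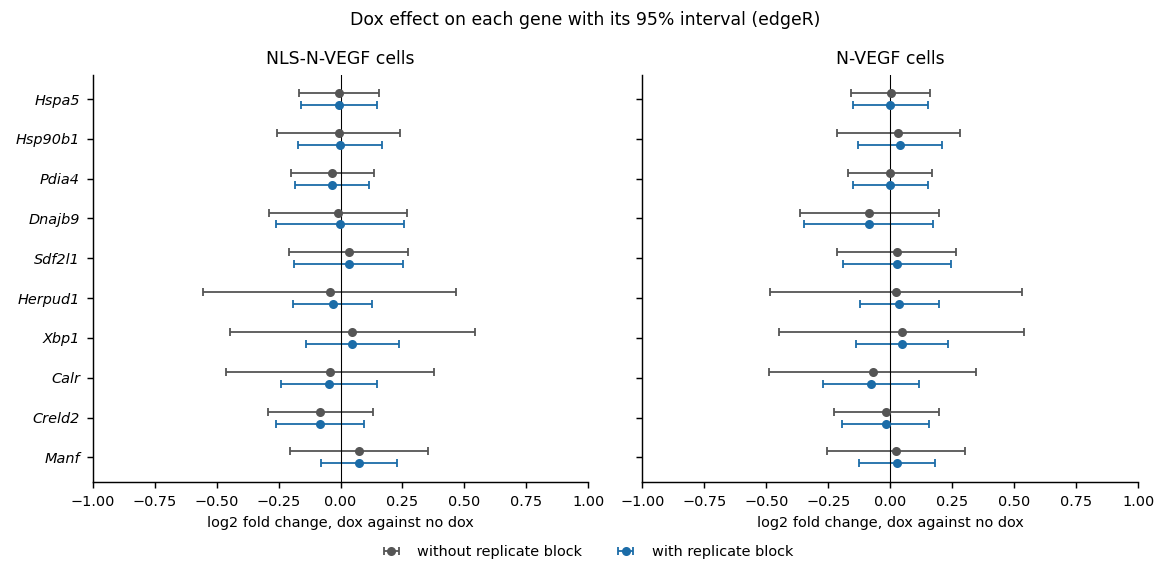
Log2 fold change of each of the 10 genes with dox, with its 95% interval from edgeR, in NLS-N-VEGF cells (left) and N-VEGF cells (right). Grey marks are from the model without and blue marks from the model with the replicate label as a block. All intervals include 0, and those of Herpud1, Xbp1 and Calr narrow most with the block.

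Within pairs of libraries with the same label, the construct rose and the 10 genes scattered around 0. The construct rose 8.94-fold, 5.85-fold and 11.955-fold in the pairs of NLS-N-VEGF cells and 24.1-fold, 13.1-fold and 44.0-fold in those of N-VEGF cells. The number of the 10 genes with a ratio above 0 on the log2 scale was 9, 4 and 6 in NLS-N-VEGF cells and 2, 8 and 7 in N-VEGF cells. The pair with 2 of 10 above 0 was the one that includes the N-VEGF library without dox that stood apart, and there Calr had a log2 ratio of -0.37 and Dnajb9 of -0.33. Without that library, the log2 fold changes in N-VEGF cells were -0.01 for Calr, -0.07 for Dnajb9, 0.18 for Herpud1 and 0.22 for Xbp1, in a fit where the suffixes are uneven between the groups, and 0 of 10 passed.

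The pair in which the construct was most abundant was library 2_290419 of N-VEGF cells. In it the log2 ratios were 0.26 for Sdf2l1, 0.24 for Creld2, 0.17 for Herpud1, -0.06 for Hspa5 and -0.09 for Hsp90b1. No gene of the 10 kept 1 sign in all 6 pairs. Xbp1 and Manf were above 0 in 5 of 6, at up to 0.14 and 0.20, and Dnajb9 and Creld2 in 2 of 6. For Xbp1 (-0.036) and Manf (-0.085) the 1 pair below 0 was 1_120519 of N-VEGF cells, which includes the library that stood apart. A direct test of whether the dox effect differed between the suffixes called 0 of 10, at a background of 0% of all genes. At an unadjusted p under 0.05 there was 1 of 10, near the share of all genes, 927 of 13608 (6.81%). The 1 of 10 was Creld2, with a difference of the log2 effects of 0.25 (edgeR adjusted p = 0.728). DESeq2 also called 0, but its 1 of 10 at an unadjusted p under 0.05 was another gene. That was Hsp90b1, at -0.198 (DESeq2 unadjusted p = 0.0343), where 1.66% of all genes had one. Creld2 had a DESeq2 unadjusted p of 0.0609.

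**Figure D4:**
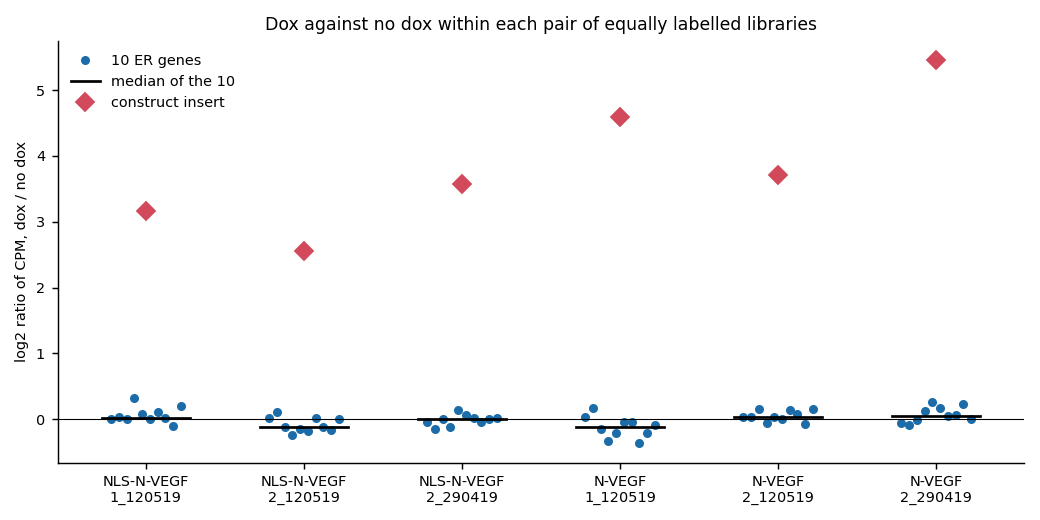
Log2 ratio of CPM with dox to CPM without dox in each of the 6 pairs of libraries with the same label. Blue points are the 10 genes, the black line is their median and the red diamond is the construct insert. The construct lies between 2.55 and 5.46, and the 10 genes between -0.37 and 0.32.

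Between the populations, none of the 10 genes passed the threshold. The difference of the dox effects was past the threshold in 0 of 10, at a background of 0% of all genes with and without the block, and for Hspa5 it was -0.01 on the log2 scale (95% interval -0.23 to 0.22). That was the narrowest case, since the bounds of the 10 genes reached from 0.580-fold (Herpud1) to 1.62-fold (Xbp1), with 7 of 10 intervals within 1.5-fold. With the block the bounds lay between 0.805-fold and 1.37-fold. When the populations were compared without dox, 0 of 10 passed (background 0%). With dox 0 of 10 passed too, at a background of 0% without and 0.0147% with the block. At an unadjusted p under 0.05 there were 0 of 10 in each of these comparisons. Of all genes, 116 (0.852%), 82 (0.603%) and 160 (1.18%) had one, so 0 in 10 is near the share of all genes. DESeq2 called 0 of 10 in each. For Hspa5, NLS-N-VEGF minus N-VEGF was 0.07 without dox (95% interval -0.09 to 0.23) and 0.06 with dox (95% interval -0.10 to 0.22), both on the log2 scale. The largest difference with dox was that of Dnajb9, at 0.15 (edgeR adjusted p = 0.9999).

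The rest of the pathway was read from lists of genes known for each step. With dox, 0 genes passed in either population or over both among 16 other ER folding genes, 14 tested of 15 genes of ER-associated degradation, 17 genes of translocation and ER exit, 6 genes of the sensors and their proteases, 12 genes of the PERK and ATF4 arm and 8 tested of 10 cytosolic heat shock genes. The medians of their log2 fold changes lay between -0.05 and 0.10. For the other ER folding genes they were 0.00 in NLS-N-VEGF and 0.02 in N-VEGF cells, and for the sensors 0.10 and 0.03. At an unadjusted p under 0.05, 1 gene of the PERK and ATF4 arm and 1 heat shock gene were counted, both in N-VEGF cells. Among 11 tested of 12 genes of secreted fibroblast cargo 0 passed. With the block Col5a2, a fibrillar collagen chain, was higher with dox in N-VEGF cells, by 0.81 on the log2 scale (SE 0.12, edgeR adjusted p = 0.00369). Over both populations with the block it was 0.61 (edgeR adjusted p = 0.00113). Of the 10 fibroblast markers, Pdgfra, a receptor of platelet-derived growth factor, was lower with dox over both populations with the block, at -0.49 (SE 0.08, edgeR adjusted p = 0.00419), and did not pass without it (edgeR adjusted p = 1.0).

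The suffix of the label, in contrast, split the 10 genes. With the group in the model, 5 of 10 differed between suffix _290419 (4 libraries) and suffix _120519 (8 libraries) and 5 did not pass. The share is near that of all genes, 6207 of 13608 (45.6%), so the count is no result about these 10. Calr, Manf and Hsp90b1 were higher in suffix _290419 (3 of 10, against 22.2% of all genes), and Herpud1 and Xbp1 were lower (2 of 10, against 23.5%). The median absolute log2 fold change over all genes tested was 0.215. Of all genes tested, 48.25% changed less than Hsp90b1 and 56.73% less than Manf. For Calr, Xbp1 and Herpud1 these shares were 74.63%, 83.48% and 84.96%. The same 5 genes did not overlap between the suffixes, while 13.1% of all genes lay wholly higher and 14.9% wholly lower in suffix _290419. The suffix was spread evenly over the 4 groups, and what it stands for cannot be read from the labels. The 10 fibroblast markers summed to 11879 to 14338 CPM in suffix _120519 and 12246 to 14252 CPM in suffix _290419. Of them 3 were higher and 4 lower, or 70% called beside 45.6% of all genes. The blood cell markers summed to 2.46 to 3.68 and 5.09 to 5.78 CPM, most of it Cd68, which was the 1 of 6 that could be tested and was higher, by 0.83 on the log2 scale (edgeR adjusted p = 6.06e-05). The epithelial markers summed to 1.62 to 3.11 and 3.10 to 3.55 CPM, and of 2 tested Krt14 was higher, by 0.73 (edgeR adjusted p = 0.00512). The endothelial markers summed to 2.82 to 5.02 and 3.15 to 4.18 CPM, and of 3 tested Tie1 was lower, at -1.30 (edgeR adjusted p = 0.0208), a call lost with the block (edgeR adjusted p = 0.0612). The part of these in the result was not tested.

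Among the lower genes, Herpud1 had 63.8, 72.3 and 79.2 CPM as the lowest, median and highest of the 8 libraries with suffix _120519, and 45.3, 48.9 and 50.8 CPM in the 4 with suffix _290419. The log2 difference was -0.58 (SE 0.06, edgeR adjusted p = 2.1e-06). Xbp1 went from 76.8, 85.7 and 97.6 CPM to 56.1, 60.1 and 63.1 CPM, which is -0.55 on the log2 scale (SE 0.07, edgeR adjusted p = 8.42e-06). All 4 libraries with suffix _290419 were thus below all 8 others for both genes. Under every alternative tried, Herpud1 stayed between -0.66 and -0.49 and Xbp1 between -0.62 and -0.50, and both passed.

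Among the higher genes, Calr had 1028, 1111 and 1429.6 CPM in suffix _120519 and 1459, 1493 and 1561 CPM in suffix _290419. The log2 difference was 0.41 (SE 0.07, edgeR adjusted p = 2.97e-04). The 1429.6 CPM belonged to the N-VEGF library without dox that stood apart, and the other 7 of its suffix reached at most 1124 CPM. Without that library the log2 fold change was 0.46. In the 6 libraries without dox alone it did not pass (0.36, edgeR adjusted p = 0.0732). Manf rose by 0.26 (SE 0.05, edgeR adjusted p = 0.00118), from a median of 114 to 138 CPM, and passed under every alternative. Hsp90b1 rose by 0.21 (SE 0.06, edgeR adjusted p = 0.00876), from a median of 1092 to 1244 CPM. It did not pass without library 2_290419 of NLS-N-VEGF cells without dox (0.17, edgeR adjusted p = 0.0614), without that of N-VEGF cells without dox (0.16, edgeR adjusted p = 0.0634) or in the 6 libraries with dox alone (0.11, edgeR adjusted p = 0.177).

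The other 5 genes moved less. Hspa5 had a log2 fold change between suffixes of -0.06 (95% interval -0.17 to 0.05), Pdia4 of 0.06 (-0.05 to 0.17) and Creld2 of 0.06 (-0.08 to 0.19). Sdf2l1 and Dnajb9 both had 0.01, with intervals of -0.15 to 0.17 and -0.18 to 0.20. In the 6 libraries with dox alone Creld2 passed, at 0.19 on the log2 scale (edgeR adjusted p = 0.0262). Of the 4 genes with the longer promoter element, Calr and Hsp90b1 were higher and Hspa5 and Creld2 did not pass.

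**Figure D5:**
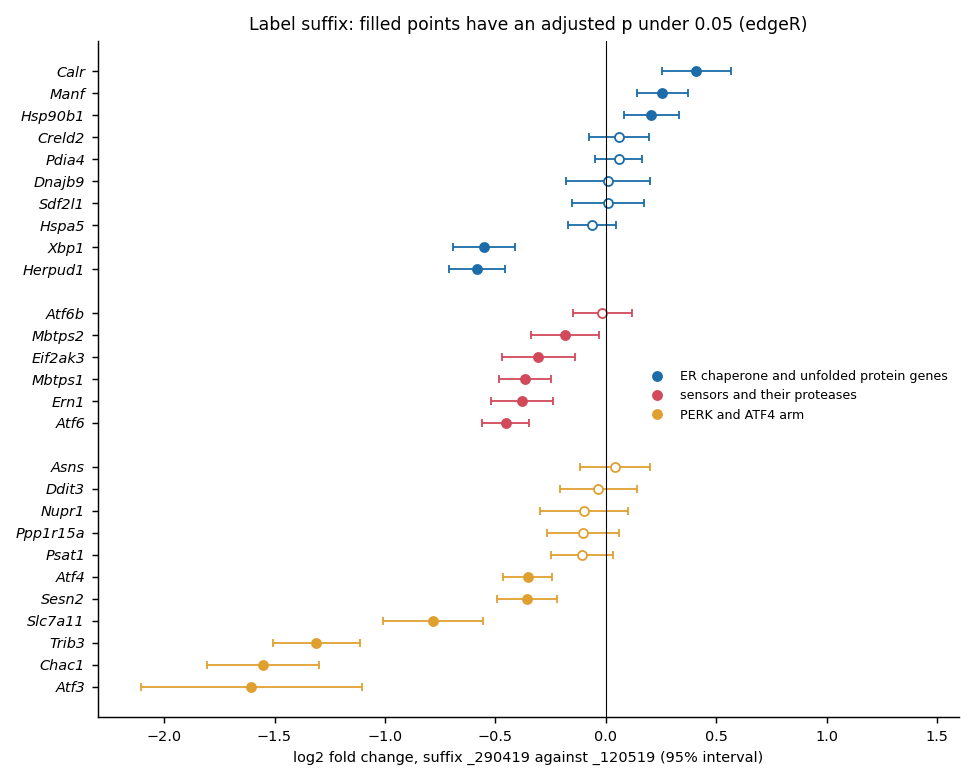
Log2 fold change of suffix _290419 against suffix _120519 with its 95% interval from edgeR, for the 10 genes (blue), the sensors and their proteases (red) and the PERK and ATF4 arm (yellow, without Vldlr, which was near 0 counts in suffix _120519). Filled points have an adjusted p under 0.05. The 10 genes lie on both sides of 0, from -0.58 to 0.41, and 5 of the 6 genes for sensors and their proteases pass below 0.

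Most genes for the sensors and their proteases were lower with suffix _290419. Of the 6 genes for sensors and their proteases, 5 were lower and 0 higher, or 83.3%, beside 45.6% of all genes called and 23.5% lower. The weakest of these calls was near the threshold (edgeR adjusted p = 0.0497). The median log2 fold change was -0.34, beside 0.01 over all genes. Atf6 had 120.3, 136 and 141 CPM as the lowest, median and highest of suffix _120519 and 94.03, 94.97 and 103 CPM in suffix _290419, or -0.45 on the log2 scale (SE 0.05, edgeR adjusted p = 4.14e-06). Ern1, which encodes IRE1, had -0.38 (SE 0.07, edgeR adjusted p = 2.52e-04), and Mbtps1, one of the proteases that cut ATF6, had -0.37 (SE 0.05, edgeR adjusted p = 6.11e-05). Atf6b, the paralog of Atf6, was the sixth and had -0.02. Of all genes tested, 77.86% changed less than Atf6, 71.7% less than Ern1 and 70.52% less than Mbtps1.

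In the PERK and ATF4 arm, 6 of 12 genes were lower and 1 higher with suffix _290419, a share of 58.3% beside 45.6% of all genes. The largest falls exceeded any change in the 10 genes. The smallest called one was -0.35 on the log2 scale, less than the -0.58 of Herpud1. Chac1, which degrades glutathione, fell from a median of 18.6 to 6.30 CPM (log2 fold change -1.55, SE 0.12, edgeR adjusted p = 1.4e-07). Trib3, a pseudokinase target of ATF4, fell from 38.3 to 16.1 CPM (-1.31, SE 0.09, edgeR adjusted p = 5.5e-08). Atf3 fell from 1.57 to 0.476 CPM (-1.61, SE 0.24, edgeR adjusted p = 5.21e-05), and Ddit3, whose reads 2 overlapping gene entries could share, had -0.04 (edgeR adjusted p = 0.744). The higher gene was Vldlr, a lipoprotein receptor, at up to 0.0736 CPM in suffix _120519, which is under the floor, and at 0.785 to 1.27 CPM in suffix _290419.

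Other lists also held genes of both directions between the suffixes. Of the other ER folding genes 3 were higher and 6 lower of 16, of the degradation genes 3 and 3 of 14 tested, and of the translocation and exit genes 3 and 7 of 17. These are shares of 56.2%, 42.9% and 58.8%, on both sides of the 45.6% of all genes. With the label number as a block, 3 and 3, 1 and 3, and 1 and 4 genes passed, or 37.5%, 28.6% and 29.4%, where 36.1% of all genes did. The genes named here as examples passed in both models. Examples were Ero1lb, an oxidase of the ER, at 0.41 and Fkbp2 at 0.39, with Ero1l at -0.35, Edem3 at -0.43 and Sec24d, a coat protein of vesicles that leave the ER, at -0.37. Of 8 heat shock genes tested 4 were higher and 0 lower, led by Bag3 at 0.49. That is 50% called, beside 45.6% of all genes called and 22.2% higher. With the block 3 were higher, or 37.5% beside 36.1% of all genes called. The secreted cargo held larger changes in both directions, with Thbs1 at 1.88, Timp1 at 0.79, Col3a1 at -1.22 and Fn1 at -0.55. Of its 11 genes tested 3 were higher and 4 lower, or 63.6% called beside the 45.6% of all genes.

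Genes whose pattern was most like that of Hspa5 were sought over the 12 libraries, after the mean of each suffix was removed, by Pearson r of log2 CPM with a pseudocount of 2, among the 8921 genes whose mean reached 10 CPM. These values are descriptions of 12 libraries that share groups and scaling. Outside the lists, the 5 highest were Mtbp (0.91), Ier3 (0.90), Strada (0.85), Pros1 (0.82) and Calu (0.82), of which Calu encodes a calcium-binding protein of the secretory pathway. Of the other 9 genes, Hsp90b1 was the most like Hspa5, with r = 0.62 and rank 134. Manf and Dnajb9 had 0.15 and 0.14, Pdia4 had 0.00, and the remaining 5 were below 0, down to -0.54 for Sdf2l1.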

How the data were processed

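RNA was sequenced from 12 libraries in 4 groups of 3, grouped from their labels. Single reads from TruSeq libraries were trimmed by the authors with Trim Galore (cutadapt 1.10) and aligned to GRCm38 with TopHat2 2.1.0 and Bowtie2 2.2.6. The deposited values are unnormalised raw counts per gene, made by the authors with HTSeq 0.6.1. Its strand option is not given in the sources used here. Columns of values not matched to a sample numbered 0.

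The analysis used edgeR 4.0.16 in R 4.3.3. The filter filterByExpr, applied by group, kept 13608 genes, libraries were scaled by TMM (trimmed mean of M-values), and all 12 libraries entered a quasi-likelihood fit with a mean for each group. The suffix was tested beside the group, and its product with dox in a further model. A call was a two-sided p under 0.05 after Benjamini-Hochberg adjustment over all genes tested. Intervals are at the 95% level from the fit, and CPM are TMM-scaled except for the floor of 3 counts and the marker genes, which use the total count. Floors cover counting error only. The fits were tested on simulated data in which only the tested comparison, dox in NLS-N-VEGF cells or the suffix, was changed. The simulated test of dox thus held no difference between suffixes, unlike these libraries. Positions and exon lengths are from the GENCODE annotation of GRCm38, 1-based, and promoters from RefSeq.

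The replicate label, a number and a suffix, was used to pair libraries of different groups. Over 12058 genes, the deviations of 18 of 18 equally labelled pairs from their group means had correlations of 0.40 to 0.83, and the common biological coefficient of variation was 15.5% without and 7.86% with this label as a block. These correlations followed the suffix more than the number. Within suffix _120519, the 12 pairs of equal number had 0.400 to 0.686 (mean 0.514) and the 12 of unequal number 0.144 to 0.678 (mean 0.471), against -0.763 to -0.349 between suffixes. Over 6 pairs of groups, the differences between the numbers within suffix _120519 correlated at a mean of 0.061. Since every group has the same mix of suffixes, the suffix alone can give the correlations of equally labelled pairs. The pairing thus comes from the labels. Whether libraries of equal number belong together cannot be decided by this check.

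The 10 genes and all gene lists were chosen with earlier results of these data known. All 10 genes were named. From each other list, up to 3 genes per direction past the threshold could be named, with at most 2 where none passed, and the 5 genes most like Hspa5 were taken from outside the lists. Alternatives were DESeq2 1.42.0, relative log expression (RLE) scaling, no filter, at least 10 counts in every library, the block, suffix _120519 alone, each library left out and, for the suffix, the libraries numbered 2, without dox or with dox alone. The suffix as a term was added after the data were seen. Protein sequences were not used here, and a single marker gene is not reported here.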

Additional observations from a re-analysis of the deposited data

Results flagged for a closer look

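Among the 20 sets of libraries examined, the 10 genes in each suffix, 2 held a lowest or highest library whose gap to the nearest other, divided by the range of the set, was above Dixon's 95% critical value. By the construction of that value chance gives about 1 in 20 such sets for normally distributed values. Calr was at 1429.6 CPM in library 1_120519 of N-VEGF cells without dox, against 1028 to 1124 CPM in the other 7 libraries of that suffix. Herpud1 was at 63.8 CPM in library 2_120519 of NLS-N-VEGF cells with dox, against 72.0 to 79.2 CPM in the other 7. No difference of the dox effect between populations or suffixes passed the threshold in any of the 10 genes. The smallest edgeR adjusted p was 0.728 without and 0.707 with the replicate block, both for Creld2 between suffixes.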

How the results depend on the processing

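The number of the 10 genes called kept its side under every alternative. It was 0 in the dox comparisons, between the populations and for both differences of the dox effect, and 4 or 5 for the suffix, with 4 in the libraries without dox alone and without either library 2_290419 of cells without dox. With the replicate block the counts were the same, 0 and 5, and among these genes the block changed no call. Among the construct and the other lists it added 4 dox calls, that of the construct in NLS-N-VEGF cells, those of Col5a2 in N-VEGF cells and over both populations and that of Pdgfra over both, and it took away 12 calls for the suffix. Single dox effects of the 10 genes lay so near 0 that their sign turned in 13 values other than those that leave out a library, and the smallest edgeR adjusted p of any was 0.484. In NLS-N-VEGF cells with no filter, the log2 fold changes that turned were 0.0055 for Hspa5, 0.0054 for Hsp90b1 and 0.0033 for Dnajb9. With suffix _120519 alone they were 0.0056 for Hspa5, 0.0624 for Hsp90b1, 0.0388 for Dnajb9 and -0.0242 for Sdf2l1. In N-VEGF cells Hspa5 turned to -0.0122 with DESeq2, -0.0054 with RLE scaling, -0.0076 with no filter and -0.0034 with at least 10 counts in every library. With suffix _120519 alone Sdf2l1 had -0.0968 and Herpud1 -0.0357.

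Leaving out a library turned the sign of some uncalled genes. In NLS-N-VEGF cells the log2 fold changes ran over -0.0373 to 0.0381 for Hspa5, -0.0653 to 0.0835 for Hsp90b1, -0.0629 to 0.0023 for Pdia4, -0.1001 to 0.063 for Dnajb9, -0.0279 to 0.1227 for Sdf2l1, -0.2226 to 0.0927 for Herpud1, -0.0745 to 0.1757 for Xbp1, -0.2038 to 0.1059 for Calr and -0.0116 to 0.1865 for Manf. In N-VEGF cells they ran over -0.028 to 0.0234 for Hspa5, -0.0552 to 0.1332 for Hsp90b1, -0.057 to 0.0325 for Pdia4, -0.1627 to 0.0093 for Dnajb9, -0.0777 to 0.1036 for Sdf2l1, -0.204 to 0.1829 for Herpud1, -0.1727 to 0.2453 for Xbp1, -0.2586 to 0.0137 for Calr, -0.1009 to 0.0693 for Creld2 and -0.0688 to 0.0836 for Manf. Between the suffixes they ran over -0.0634 to 0.0535 for Dnajb9 and -0.0506 to 0.0907 for Sdf2l1.

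Other uncalled signs that turned between the suffixes were those of Dnajb9, at -0.0039 with DESeq2, -0.0237 with no filter, -0.0259 with the replicate block, -0.0296 in the libraries numbered 2 and -0.0196 in those without dox. Sdf2l1 had -0.0057 with DESeq2, -0.0247 with no filter and -0.1113 in the libraries without dox, where Creld2 had -0.0613. The causes were not tested.

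With 3 libraries per group and the spread between suffixes, the intervals of the dox effect reached 1.46-fold without the block. Dnajb9, the lowest gene, had 171 to 287 counts per library.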
